A study of Mus musculus with 40 samples.

Results

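Restimulation of induced regulatory T cells (iTregs) and activation of thymic regulatory T cells (tTregs) were compared gene by gene, as the change from resting to restimulated iTregs minus the change from resting to activated tTregs. The comparison used 12 of the 40 mouse samples of the series, 3 RNA-seq libraries in each of 4 groups: resting iTregs, restimulated iTregs, resting tTregs and activated tTregs. The question it addresses is which genes that respond to T cell receptor (TCR) stimulation move in iTregs, in tTregs, or in both. For iTregs, naive T cells of 6-week-old mice were cultured for 4 days with 2 ng/ml TGF-β and IL-2, sorted on the Foxp3 reporter and kept for 1 day in IL-2, and restimulated iTregs then received plate-bound anti-CD3 at 0.5 µg/ml and anti-CD28 at 1 µg/ml. For tTregs, CD4+ Foxp3-GFP+ cells were sorted from spleens of Foxp3-GFP mice 2 to 4 months old. The tTregs were activated through the TCR, but the reagents and doses used for their sequenced libraries, and the time for which either cell type was stimulated before sequencing, are not given in the sources used here. The labels call the splenic cells nTreg, and no marker of thymic origin was part of the gate. Cultured iTregs had already met anti-CD3 and anti-CD28 during induction, so previous stimulation, culture, the age of the mice and the type of Treg cannot be told apart.

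The TCR acts through calcium, the phosphatase calcineurin and NFAT, through MAP kinases and AP-1, and through NF-κB. In a resting T cell these pathways switch on transcription factors, cytokines, surface receptors and their own inhibitors, and they carry the cell into growth and division. Foxp3 is the transcription factor that defines Tregs and represses many cytokine genes, and iTregs made in culture are known to hold Foxp3 expression less firmly than Tregs formed in the thymus.

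Each library held between 5256800 and 14103874 gene reads, with medians of 10809645 in resting iTregs, 10907766 in restimulated iTregs, 7582032 in resting tTregs and 7131717 in activated tTregs. The tTreg libraries were shallower and varied more: the median over genes of the standard deviation between the 3 libraries of a group was 0.14 and 0.12 on the log2 scale for resting and restimulated iTregs, and 0.20 and 0.22 for resting and activated tTregs. Whether the 3 libraries of a group came from separate cultures or animals is not stated, so p-values measure only the spread between these libraries. All 8 T cell markers were above 10 normalized counts in each group, with sums between 37727 and 46534. Markers of tTregs summed to between 41798 and 50810 in tTregs and to between 16444 and 23284 in iTregs. Ikzf2, which encodes the Treg factor Helios, averaged 9403 normalized counts in resting tTregs and 167 in resting iTregs. Foxp3, Nrp1, Lrrc32 and Gpr83 were also lower in resting iTregs. Ctla4 lay closer, at 2897 in resting tTregs and 2144 in resting iTregs. Il2ra went the other way, at 6752 and 11560, and made up much of the iTreg sum. The B cell genes Ms4a1 and Pax5 were at 0 in all groups, and the 9 B cell markers summed to 263 to 369 in resting and 532 to 558 in restimulated iTregs and to 137 to 213 in tTregs. Cd74 made up most of the iTreg sum, with means of 260 at rest and 486 after restimulation, against 28.8 and 60.7 in resting and activated tTregs. Cd79b went the other way, at 31.9 and 19.3 in iTregs and 124 and 100 in tTregs, so the sums do not measure B cell content. Myeloid and erythroid markers summed to at most 56.8 and 30.3. Markers of CD8 T and NK cells summed to 128 to 162 in resting and 164 to 198 in restimulated iTregs. In tTregs these markers summed to 157 to 178 at rest and 105 to 160 on activation. In such bulk libraries, fewer cells of a type and less RNA per cell cannot be told apart.

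Fewer genes were called in iTregs than in tTregs, and fewer still in both. Values below are normalized counts (gene reads divided by a size factor per library), and fold changes are on the scale log2(normalized count + 1), given with their standard error (SE) and n = 3 libraries per group. A gene was called where the Benjamini-Hochberg adjusted p of limma was under 0.05 and the log2 fold change exceeded 0.5 in size. Of 11468 genes tested, 940 (8.20%) were called in iTregs: 444 (3.87%) rose on restimulation and 496 (4.33%) fell. In tTregs 2387 (20.8%) were called, with 1345 (11.7%) higher and 1042 (9.09%) lower after activation. With a variance weight per group, which allows for the larger spread of tTreg libraries, iTregs had 1401 calls and tTregs 1802. A test of the iTreg minus the tTreg response called 1858 genes (16.2%), higher in iTregs for 746 (6.51%) and lower for 1112 (9.70%). Both responses rest on separate libraries, so no control sample was shared between them.

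Genes were then put into classes by these calls. A gene counted as iTreg-only or tTreg-only where it was called in that cell type, not in the other, and the difference was called too. By this rule 348 genes were iTreg-only (186 higher, 162 lower) and 1009 were tTreg-only (676 higher, 333 lower). The same direction was called in both cell types for 208 genes (99 higher, 109 lower), and 29 of these also differed in the size of the change. Opposite directions were called for 86 genes, of which 42 rose in iTregs and fell in tTregs and 44 did the reverse. A further 298 genes called in iTregs alone and 1084 called in tTregs alone stayed undecided, since the difference was not called; they make up 50.5% of the genes called in a single cell type. Called genes shared by both cell types numbered 294, which is 31.3% of those called in iTregs and 12.3% of those called in tTregs. Across all 11468 genes the 2 responses had a Pearson r of 0.13, and r was 0.42 over the 294 genes called in both, where 208 (70.7%) had the same sign. These correlations are across genes, which are not independent replicates.

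**Figure D1:**
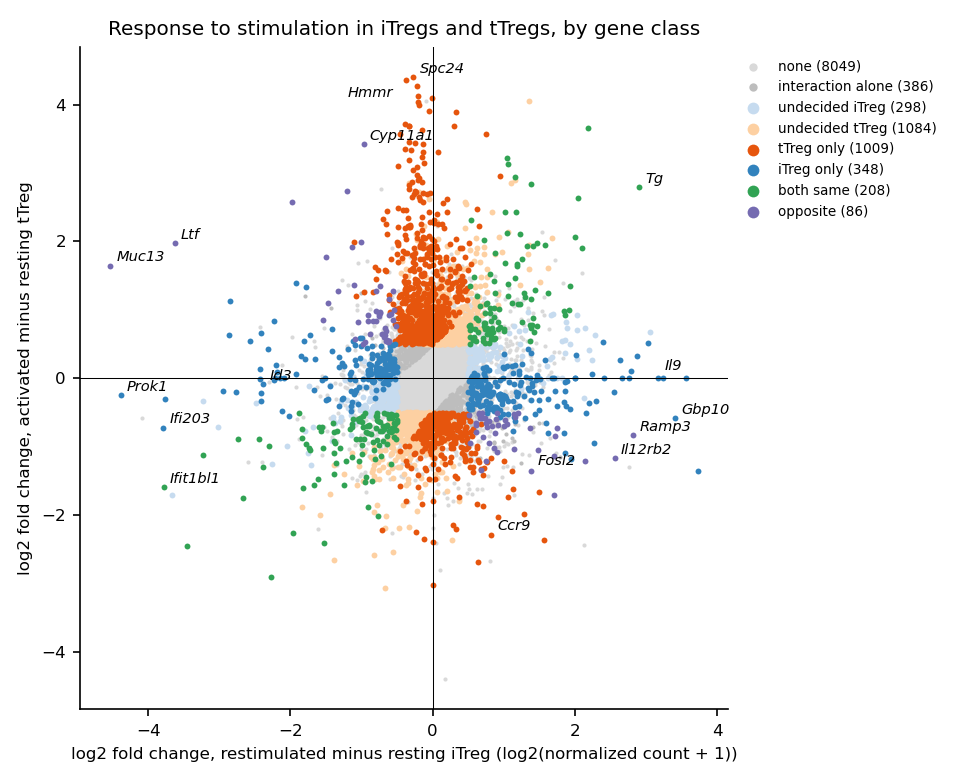
Log2 fold change on restimulation in iTregs (horizontal axis) against that on activation in tTregs (vertical axis), 1 point per tested gene, coloured by class with the number of genes in each class. The orange tTreg-only genes form a column that reaches above 4 on the vertical axis near 0 on the horizontal axis, and the blue iTreg-only genes lie along the horizontal axis.

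Among iTreg-only genes that rose were an interferon-induced GTPase, a death ligand, and cytokines. The genes leading each class, such as Gbp10, Fasl, Hmmr, Spc24, Muc13, Tg and Rflnb, were picked by a rule. It required no overlap between the groups of a called change, so for them such a gap is no added support. Gbp10, a guanylate-binding protein of the interferon response, stood at 29.5, 28.2 and 53.1 normalized counts in resting iTregs and at 409.9, 357 and 394 after restimulation. Resting tTregs had 68.9, 54.5 and 28.5 and activated tTregs 24.2, 33.1 and 38.1. The 3 restimulated iTreg libraries were thus far above all others, while the tTreg groups overlapped. The log2 fold change of Gbp10 was 3.41 ± 0.32 in iTregs (adjusted p = 4.51e-05) and -0.59 ± 0.32 in tTregs (adjusted p = 0.18), a difference of 4.00 ± 0.45 (adjusted p = 0.000115). Without resting tTreg library 3 the fall in tTregs was also called (-0.95, adjusted p = 0.0244), so that Gbp10 moved to the opposite class.

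Fasl, the ligand that triggers death through the receptor Fas, was at 32.7, 43.4 and 60.7 in resting iTregs and at 168, 151 and 173 after restimulation, with no overlap. In tTregs it was at 28.1, 19.5 and 20.5 at rest and 4.04, 11.4 and 20.0 on activation. Here the groups overlapped at the highest activated library. The difference in response was 2.96 ± 0.59 (adjusted p = 0.00481), and its class turned on 2 libraries: the iTreg call was lost without resting iTreg library 1 (adjusted p = 0.0548), and the fall in tTregs was called without activated tTreg library 3 (-1.57, adjusted p = 0.011). Bcl2l14, a member of the BCL2 family, rose by 2.55 ± 0.38 in iTregs, from 37.9, 14.1 and 20.5 to 139, 149 and 119. In tTregs Bcl2l14 was between 9.43 and 23.6 in all 6 libraries and its fold change was -0.20 ± 0.38.

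Several iTreg-only genes were not seen at all in tTregs. Il21, the cytokine of follicular helper T cells, was at 219, 255 and 250.4 normalized counts in resting iTregs and at 936, 893 and 1084 after restimulation, a log2 fold change of 2.00 ± 0.20 (adjusted p = 6.55e-05). Gzma, a granule protease of killer cells, went from 813, 784 and 766 to 2057, 2035 and 1995 (1.36 ± 0.16). Il9, a mast cell growth cytokine, went from 4.22, 3.03 and 1.52 to 38.3, 32.5 and 28.2 (3.17 ± 0.42). In each of these 3 genes the restimulated libraries were all above the resting ones, and all 6 tTreg libraries were at 0. A count of 0 allows up to 3 reads per library, or at most 5.45 normalized counts in the shallowest of them, so no tTreg fold change can be given and the difference in response compares a change with an undetected gene. All 3 genes left the iTreg-only class with edgeR and DESeq2, and Il9 also with a pseudocount of 0.1. Of the 348 iTreg-only genes, 15 were at 0 and 33 at or under 10 normalized counts in all 6 tTreg libraries. For the 15 at 0 the called difference is the iTreg change itself, so their class says nothing of a tTreg response.

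Il10, the anti-inflammatory cytokine, was detected in both cell types. It was at 34.8, 28.2 and 34.9 in resting iTregs and at 186, 139 and 148 after restimulation, and at 10.9, 2.60 and 10.3 in resting and 6.73, 7.57 and 7.27 in activated tTregs. The iTreg groups were apart and the tTreg groups overlapped, with log2 fold changes of 2.23 ± 0.38 and 0.06 ± 0.38. Tigit, an inhibitory receptor, rose by 1.40 ± 0.18 in iTregs, from 40.1, 49.4 and 62.2 to 129.9, 141 and 128. Its highest iTreg library remained far under the lowest of the 6 tTreg libraries, at 1148. Bhlhe40, a transcription factor that limits Il10 in helper T cells, rose by 1.13 ± 0.14 in iTregs, from 1474, 1379 and 1399 to 2892, 3062 and 3340.4, and its 6 tTreg libraries overlapped between 407 and 629.5. Rgs16, which shortens signals from G-protein-coupled receptors, rose by 1.03 ± 0.21 in iTregs and its tTreg fold change was -0.29 ± 0.21.

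The fall of Foxp3 was called in iTregs alone. Foxp3 was at 1178, 1338 and 1324 normalized counts in resting iTregs and at 705, 695 and 731 after restimulation, against 7218, 7767 and 7627 in resting and 7171, 6815 and 7951 in activated tTregs. The iTreg groups did not overlap, the tTreg groups did, and every tTreg library was above every iTreg library. The log2 fold change was -0.85 ± 0.08 in iTregs (adjusted p = 6.55e-05) and -0.05 ± 0.08 in tTregs (adjusted p = 0.714), with a difference of -0.80 ± 0.12 (adjusted p = 0.000785). Foxp3 lies at chrX:7573644-7595245 on the plus strand of GRCm38. In this gene, 31.5% of exon bases are shared with neighbouring annotated genes.

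Id3, an inhibitor of E-protein transcription factors, fell further. It went from 699.8, 561 and 618 in resting iTregs to 124, 113 and 119.9 after restimulation, and was at 1579, 1447 and 1687 in resting and 1698, 1269 and 1513 in activated tTregs. Only the iTreg groups were apart, and the log2 fold changes were -2.38 ± 0.12 (adjusted p = 6.01e-07) and -0.08 ± 0.12. Klf2, a quiescence and trafficking factor, fell by 2.02 ± 0.24 on the log2 scale in iTregs, and its value in tTregs was -0.56 ± 0.24 (adjusted p = 0.0943). Both edgeR and DESeq2 called the Klf2 fall in tTregs too (adjusted p = 0.0480 and 0.0263), which makes it a shared gene whose change differed in size. The TGF-β receptor Tgfbr1 fell by 0.75 ± 0.11 in iTregs, from 491, 529 and 579.7 to 300.1, 359 and 292, while its tTreg value was 0.27 ± 0.11 (adjusted p = 0.078). Il10rb, a chain of the IL-10 receptor, had a log2 fold change of -0.51 ± 0.11 in iTregs, just past the threshold, and it lost the call without any of 3 iTreg libraries (resting 1, resting 2 or restimulated 3, with values of -0.49, -0.46 and -0.44). Cxcr3, a chemokine receptor, and Il18rap, a chain of the IL-18 receptor, fell by 1.08 ± 0.13 and 1.67 ± 0.21 in iTregs and had tTreg values of 0.20 ± 0.13 and -0.18 ± 0.21.

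Among the iTreg-only genes that fell were also Prok1, Ifi203, Pdlim4 and Coro6. Prok1, a secreted ligand, went from 61.1, 52.5 and 64.5 in resting iTregs to 2.01, 1.12 and 2.72, and stood at 36.3, 31.1 and 38.7 in resting and 25.6, 46.4 and 21.8 in activated tTregs. Ifi203, an interferon-inducible DNA-binding protein, went from 148, 140.2 and 183 to 5.04, 17.9 and 11.8 in iTregs, a log2 fold change of -3.79 ± 0.31, and from 2368, 2349 and 1955 to 1138, 1428 and 1491 in tTregs. Both Ifi203 pairs of groups were apart, but the tTreg fall of 0.72 ± 0.31 was not called (adjusted p = 0.0955) and became so without restimulated iTreg library 1 (adjusted p = 0.0108) or 2 (0.0412). Ifi203 also left the iTreg-only class with edgeR, DESeq2, a pseudocount of 5 and all 24 libraries in the fit. Pdlim4, a cytoskeletal adaptor, and Coro6, a coronin, fell by 1.78 ± 0.49 and 2.23 ± 0.42 in iTregs. Both were near the floor in tTregs, with 3 and 2 reads over the 3 resting libraries, and the counting ratio of activated over resting tTregs was 4.29 (95% exact interval 1.13 to 23.96) for Pdlim4 and 2.93 (0.479 to 30.7) for Coro6. Pdlim4 held its class in 4 of the 12 fits that left out 1 library. These intervals cover counting error only.

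Lists of genes by role gave the wider pattern. Their counts are to be read against all genes tested, of which 3.87% rose and 4.33% fell in iTregs and 11.7% rose and 9.09% fell in tTregs. Of 32 Treg identity and suppression genes tested, 6 rose (18.8%) and 9 fell (28.1%) in iTregs, both above those shares. In tTregs 8 rose (25%) and 1 fell (3.12%). The difference was called lower in iTregs for 10 (31.2%, against 9.70% of all genes), with Foxp3, Tgfbr1, Il10rb, Sema4a and Ccr8 among them. It was higher for 2, Il10 and Tigit (6.25%, near the 6.51% of all genes). Ccr8, a chemokine receptor of tissue Tregs, rose in tTregs from 84.4, 83.0 and 79.7 to 222, 264 and 285 (1.62 ± 0.10), without overlap, and had an iTreg value of 0.35 ± 0.10. Ctla4, the inhibitory receptor, was called in neither (0.04 ± 0.17 and -0.44 ± 0.17). Of 31 T helper cytokines, receptors and regulators, 10 rose (32.3%) and 1 fell (3.23%) in iTregs, while 3 rose (9.68%) and 8 fell (25.8%) in tTregs, and the difference was higher in iTregs for 9 (29%, against 6.51% of all genes). Ifng, Il4 and Tbx21, the signature genes of T helper subsets, were not called: their iTreg values were 1.74 ± 0.69, 1.36 ± 0.53 and 1.13 ± 0.65, with Ifng at 13.1, 19.1 and 18.2 at most. This depended on the test, since the iTreg rise of Tbx21 was called by edgeR and DESeq2 (adjusted p = 0.0356 and 0.00517), that of Il4 by edgeR (0.0250), and that of Ifng with a pseudocount of 5 (0.0385). Another 10 genes of the list, Il2, Il13 and Il17a among them, were under the filter on low values and were not tested.

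Interferon-stimulated genes were more often called higher in iTregs and lower in tTregs, but mostly not the same genes. Of 48 tested, 14 rose (29.2%) and 4 fell (8.33%) in iTregs (median log2 fold change 0.40), and 5 rose (10.4%) and 16 fell (33.3%) in tTregs (median -0.42), against medians of -0.015 and 0.0038 over all genes. By class, 9 of the 48 were iTreg-only, 7 tTreg-only, 7 shared and 2 opposite, and 5 were undecided in tTregs. The difference was higher in iTregs for 22 (45.8%, against 6.51% of all genes) and lower for 3 (6.25%, against 9.70%). Over the alternatives the count of 22 ran from 17 to 26. The 16 that fell in tTregs ran from 10, without activated tTreg library 1, to 22. Stat2, a subunit of the interferon-activated transcription factor ISGF3, went from 488, 506 and 476 to 1006, 1006 and 1029 in iTregs and from 833, 833 and 811 to 949, 839 and 1024 in tTregs. Its iTreg groups were far apart and those of tTregs lay close, with fold changes of 1.05 ± 0.09 and 0.18 ± 0.09. The mean level of the list, as log2(normalized count + 1), was 7.52 to 7.87 in resting and 7.83 to 7.96 in restimulated iTregs, whose ranges overlapped. It was 8.62 to 8.99 in resting and 8.15 to 8.58 in activated tTregs, which did not overlap.

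Calcium entry genes that were called all fell. Of 31 genes of store-operated calcium entry and NFAT, 3 fell in iTregs (9.68%, against 4.33% of all genes) and 8 in tTregs (25.8%, against 9.09%), with median log2 fold changes of -0.16 and -0.31. Without resting iTreg library 3 the iTreg count was 1. Called higher by limma were 0 in either cell type, where 3 and 1 were higher at an unadjusted p below 0.05, and edgeR and DESeq2 also called 0. Orai2, a subunit of the calcium channel, fell in iTregs from 591, 609 and 539 to 337, 378 and 318 (-0.75 ± 0.14), and stood at 0.02 ± 0.14 in tTregs. Without restimulated iTreg library 3 its difference was not called (adjusted p = 0.0507). The inositol trisphosphate kinase Itpkb fell in tTregs, from 962, 967 and 962 to 539, 546 and 534, and stayed between 249 and 296 in iTregs. Itpr1, the calcium release channel of the endoplasmic reticulum, fell by 0.61 ± 0.13 in tTregs and had an iTreg value of 0.40 ± 0.13. Ryr2, another calcium release channel, was at most 5.31 in any iTreg library and between 21.8 and 60.8 in tTregs, and was called in neither.

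**Figure D2:**
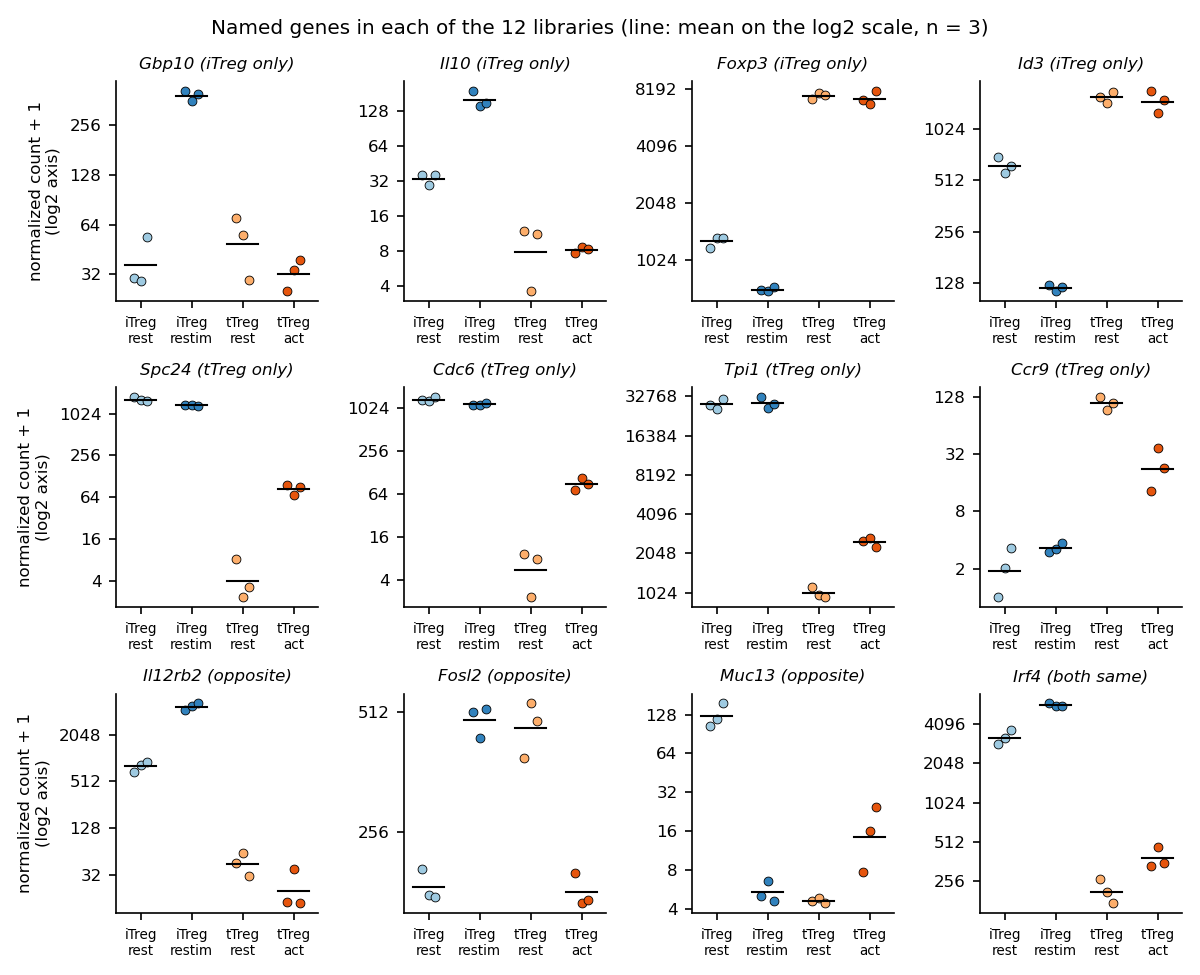
Normalized count + 1 (log2 axis) of 12 named genes in the 12 libraries, 1 point per library, with the class in each panel title and a line at the mean on the log2 scale (n = 3). Gbp10, Il10, Foxp3 and Id3 move between the iTreg groups only, Spc24, Cdc6, Tpi1 and Ccr9 between the tTreg groups only, and Il12rb2, Fosl2 and Muc13 move in opposite directions.

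The tTreg-only genes that rose were led by the cell cycle. Of 40 genes of mitosis and the kinetochore, 36 rose in tTregs (90%, against 11.7% of all genes). The difference was called lower in iTregs for 38 (95%, against 9.70% of all genes). None changed in iTregs by limma: 0 were higher at an unadjusted p below 0.05 and 12 lower, of which edgeR and DESeq2 each called 3 lower. Of 39 DNA replication genes, 33 rose in tTregs (84.6%), and the difference was called lower in iTregs for 31 (79.5%). In iTregs 1 fell and 0 rose by limma, edgeR or DESeq2, with 1 higher at an unadjusted p below 0.05. Over the alternatives these tTreg counts ran from 34 to 36 and from 31 to 34. The median log2 fold changes in tTregs were 1.88 and 1.16, and those in iTregs -0.32 and -0.14. Both lists together supplied 64 of the 676 tTreg-only genes that rose, or 9.47%.

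By the fitted difference, Hmmr, Spc24, Bub1 and Pclaf led these genes, although the value for Hmmr rests on the pseudocount. Hmmr, a spindle protein and hyaluronan receptor at chr11:40701395-40733422 on the minus strand, was at 0 in all 3 resting tTreg libraries and at 21.5, 18.9 and 18.2 in the activated ones. In iTregs it was at 989, 907 and 1060.0 at rest and 729, 719 and 818 after restimulation. The tTreg groups were apart, and so were the iTreg groups, about which the test made no call (-0.38 ± 0.15, adjusted p = 0.124). The 46 reads of activated tTregs put Hmmr at least 5.85-fold higher than the floor of 3 reads per library, and its fitted value of 4.36 ± 0.15 depends on the pseudocount. Its promoter is shown because it holds the CCAAT box, the site of the factor NF-Y common in cell cycle genes, at 5 places, where the capitals stand (letters CCAAT, or ATTGG on the other strand).

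Hmmr: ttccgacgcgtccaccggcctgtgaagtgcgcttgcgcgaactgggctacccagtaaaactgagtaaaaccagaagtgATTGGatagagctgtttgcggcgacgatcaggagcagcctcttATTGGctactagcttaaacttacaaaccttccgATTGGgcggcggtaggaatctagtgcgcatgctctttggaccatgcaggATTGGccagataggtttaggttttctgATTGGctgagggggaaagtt

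These are the 250 bases before the RefSeq start, chr11:40733438-40733687 of GRCm38.p6, read 5′ to 3′ on the minus strand. Of the 9108 promoters of tested genes at hand (250 bases before to 50 after the start), 39.7% held this box on either strand. Since the 9108 were 79.4% of the 11468 genes, the match to classes was too incomplete for a comparison between them, and a match describes the letters only.

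Spc24, a kinetochore subunit, was at 7.26, 1.298 and 2.28 in resting tTregs and at 95.6, 68.1 and 87.2 in activated tTregs (4.40 ± 0.34, adjusted p = 3.63e-06). In iTregs it was at 1745, 1584 and 1547 and then at 1352, 1362 and 1317 (-0.27 ± 0.34). Bub1, a spindle checkpoint kinase, had 3 reads over the resting tTreg libraries and 77 over the activated ones, a ratio of 30.05 (95% exact interval 9.90 to 149). Pclaf, a partner of the replication clamp, went from 9.98, 6.49 and 5.69 to 145, 163 and 119.9 in tTregs. In iTregs Pclaf was between 3532 and 4616 in all 6 libraries. For Spc24, Bub1 and Pclaf the tTreg groups were apart by more than the whole spread within either.

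Among the replication genes, Cdc6, which loads the replicative helicase, went from 8.16, 1.298 and 6.83 to 72.7, 108 and 89.0 in tTregs, and its change was 4.03 ± 0.39 against -0.21 ± 0.39 in iTregs. Mcm10, which activates that helicase, went from 4.54, 2.60 and 5.69 to 91.6, 79.5 and 89.0. E2f8, a repressor of the E2F family, rose by 3.68 ± 0.41. Uhrf1, which passes on DNA methylation through replication, rose from 89.8, 104 and 92.3 to 553, 553 and 656. Ube2c, the ubiquitin-conjugating enzyme of the anaphase-promoting complex, rose from 8.16, 1.298 and 9.11 to 88.9, 64.3 and 76.3. In each of these 5 genes the tTreg groups did not overlap and the iTreg change was not called. The promoter of Cdc6 is printed as an example of an E2F site, the binding site of the factors that start S phase.

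Cdc6: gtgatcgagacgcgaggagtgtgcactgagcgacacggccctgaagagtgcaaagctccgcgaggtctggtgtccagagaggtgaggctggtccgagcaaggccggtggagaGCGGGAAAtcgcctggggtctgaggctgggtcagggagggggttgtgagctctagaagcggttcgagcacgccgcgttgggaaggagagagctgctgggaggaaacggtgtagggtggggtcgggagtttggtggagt

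It spans chr11:98907901-98908150 of GRCm38.p6 on the plus strand, the 250 bases before the RefSeq start, and the capitals mark the only E2F match. The letters searched for were TTTCCCGC and TTTGGCGC on both strands, and 3.29% of the 9108 promoters held either.

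These cell cycle genes were already high in resting iTregs. Every one of the 40 mitosis and the 39 replication genes had a higher mean in resting iTregs than in activated tTregs. The mean level of the mitosis list, as log2(normalized count + 1), was 10.7 in resting and 10.4 in restimulated iTregs, 4.36 to 4.50 in resting tTregs and 6.33 to 6.42 in activated tTregs. Activated tTregs were thus above resting tTregs in all libraries and below every iTreg library. For the replication list the levels were 10.8, 10.6 to 10.7, 6.81 to 6.90 and 8.17 to 8.29 in the same order. Resting iTregs had 15.0 times the Cdc6 level and 54.9 times the Ube2c level of activated tTregs. Among all 676 tTreg-only genes that rose, 512 had a higher mean in resting iTregs than in activated tTregs, against 5791 of the 11468 genes tested. How far the resting level bears on the response was not tested.

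**Figure D3:**
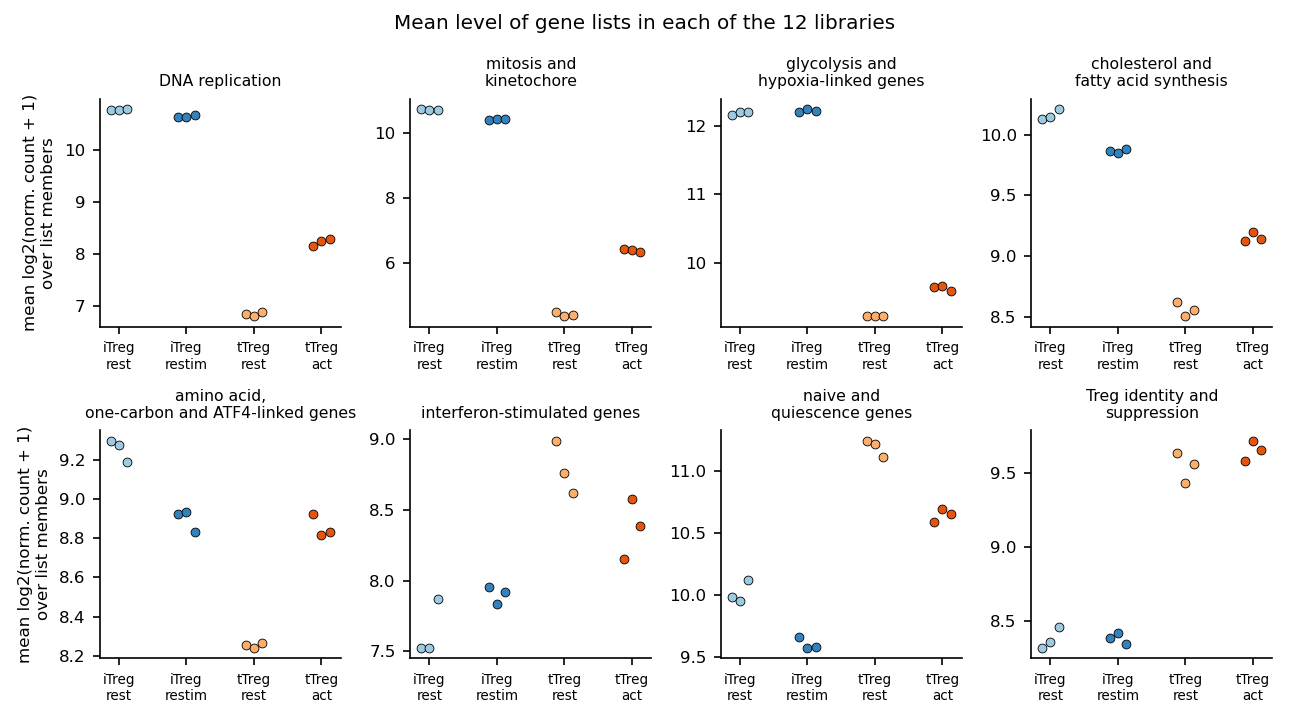
Mean log2(normalized count + 1) over the tested members of 8 gene lists in each of the 12 libraries, 1 point per library, with a separate vertical axis per list that does not start at 0. In the lists for DNA replication, mitosis, glycolysis and cholesterol synthesis, activated tTregs lie above resting tTregs and below both iTreg groups.

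Metabolic and protein folding lists showed the same order of calls. Of 26 genes of glycolysis and hypoxia, 10 rose (38.5%) and 3 fell (11.5%) in tTregs, and 1 rose in iTregs (3.85%). The lactate exporter Slc16a3 went from 190.5, 257 and 316 to 790.5, 479 and 737 in tTregs, and the glycolytic enzyme Tpi1 from 1126, 991 and 943 to 2552, 2708 and 2299.6. Tpi1 was between 26274 and 32149.6 in the 6 iTreg libraries, which overlapped, and all 26 genes had a higher mean in resting iTregs than in activated tTregs. The glucose transporter Slc2a3 went the other way, falling by 0.67 ± 0.14 in tTregs with an iTreg value of 0.35 ± 0.14. Of 29 genes of cholesterol and fatty acid synthesis, 15 rose (51.7%) and 1 fell (3.45%) in tTregs. In iTregs 6 fell (20.7%), or 3 without resting iTreg library 2, and 0 rose, by limma with or without adjustment and by edgeR and DESeq2. The difference was called lower in iTregs for 18 (62.1%). Sqle, which makes squalene epoxide, went from 300.3, 317 and 387 to 1169, 754 and 1169.8 in tTregs (1.60 ± 0.16), and Fdps, which makes farnesyl diphosphate, from 526, 410.0 and 457 to 1075, 1425 and 1152 (1.39 ± 0.11). The iTreg values of Sqle and Fdps were -0.29 ± 0.16 and -0.25 ± 0.11.

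Of 24 amino acid, one-carbon and ATF4-linked genes, 9 rose in tTregs (37.5%) and 7 fell in iTregs (29.2%), with 0 the other way round by limma (also at an unadjusted p below 0.05), edgeR or DESeq2. The difference was called lower in iTregs for 14 (58.3%, against 9.70% of all genes). Slc7a3, a transporter of cationic amino acids, went from 4.54, 2.60 and 5.69 to 17.5, 36.0 and 23.6 in tTregs, and Pycr1, a proline synthesis enzyme, from 60.8, 48.0 and 41.0 to 131, 122 and 122. Cth, which makes cysteine, had 3 reads over resting tTregs and a counting ratio of 20.7 (95% exact interval 6.70 to 103) on activation. In all 3 genes the tTreg groups were apart and the iTreg change was not called. Of 24 genes of the unfolded protein response and chaperones, 10 rose in tTregs (41.7%), and 1 rose and 1 fell in iTregs (4.17% each). The chaperone Hspa5 went from 4224, 3327 and 4693 to 8598, 5685 and 8797 in tTregs (0.90 ± 0.16) and was at -0.42 ± 0.16 in iTregs. Hsph1 and Calr, a cytosolic and a reticulum chaperone, rose by 1.38 ± 0.13 and 0.88 ± 0.13 in tTregs. Of 30 ribosome biogenesis genes, 1 rose (3.33%) and 3 fell (10%) in tTregs, and 1 rose (3.33%) in iTregs. The 10% that fell in tTregs and the share that rose in iTregs are near those of all genes. The 3 that fell ran from 2 to 8 over the alternatives.

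Other tTreg-only genes that rose included Nkg7, a protein of cytotoxic granules, from 63.5, 55.8 and 42.1 to 116, 145 and 105, and Socs2, an inhibitor of cytokine signals, by 0.82 ± 0.13. In iTregs Nkg7 was between 1044 and 1319 and overlapped between groups, while Socs2 went from 7023, 6730.1 and 6597 to 5255, 4878 and 4893 at a log2 change of -0.44 ± 0.13, under the size needed for a call. Of 10 cytotoxic effector genes, 3 rose in each cell type (30%). Socs2 and Rgs16 belong to the 30 feedback inhibitors, of which 4 rose (13.3%) and 1 fell (3.33%) in iTregs and 4 rose (13.3%) and 5 fell (16.7%) in tTregs, where the share that rose is near the 11.7% of all genes.

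**Figure D4:**
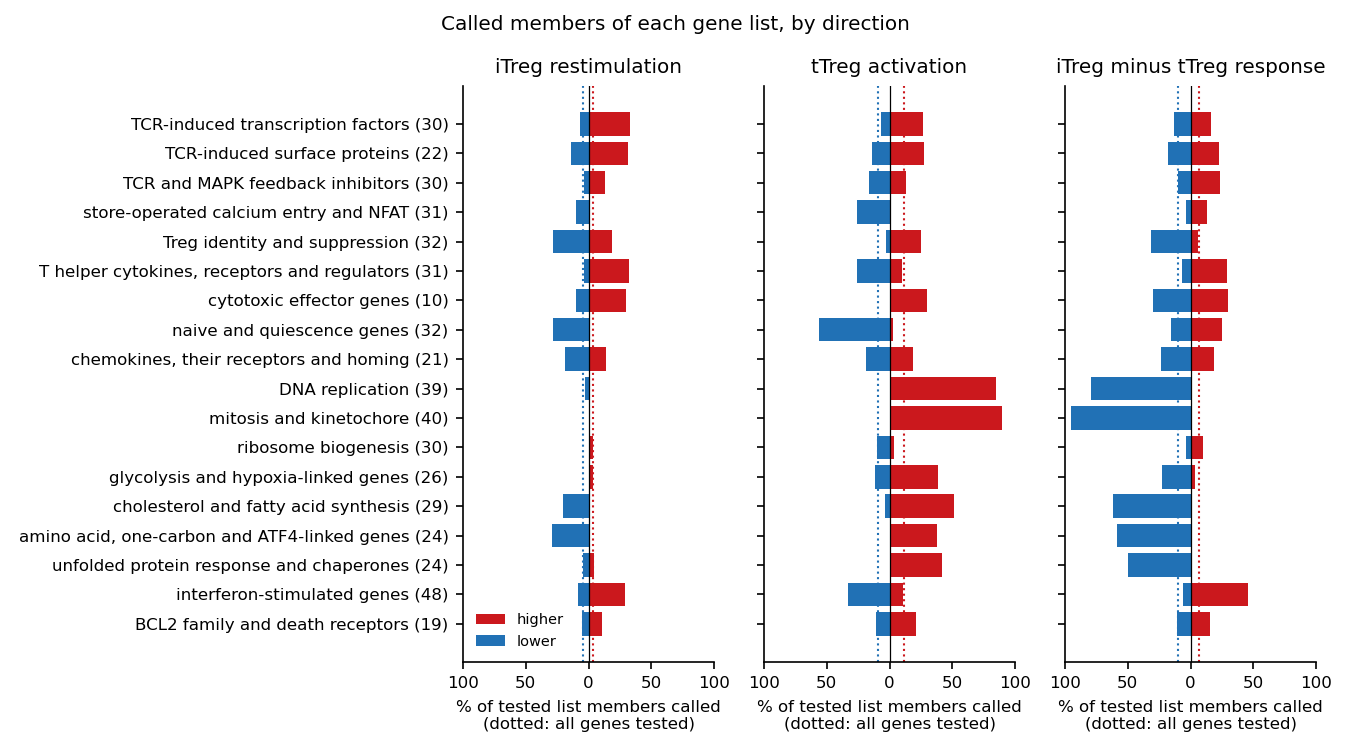
Percent of the tested members of 18 gene lists (number tested in brackets) called higher (red, right) and lower (blue, left) in iTregs, in tTregs and for the iTreg minus tTreg difference, with dotted lines at the percent of all genes tested. The bars for DNA replication and mitosis reach furthest in the tTreg panel, and are near 0 in the iTreg panel.

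Genes that fell in tTregs alone were led by Mpzl2, Ccr9, Galnt9 and Fzd7. Ccr9, the gut-homing chemokine receptor, fell from 124, 92.1 and 109 in resting tTregs to 12.1, 36.0 and 21.8 in activated tTregs (-2.29 ± 0.45), and was at 2.72 or lower in all iTreg libraries, at or under the floor of 3 reads. Its 4 and 7 reads over resting and restimulated iTregs were too few to measure an iTreg change. Mpzl2, an adhesion molecule, fell from 90.7, 84.3 and 87.7 to 24.2, 18.9 and 9.08, and was between 0 and 16.1 in iTregs. It held its class in 7 of the 12 fits that left out 1 library. Galnt9, a glycosyltransferase, fell from 37.2, 37.6 and 34.2 to 16.2, 13.2 and 3.63, and Fzd7, a Wnt receptor, fell from 8.16, 7.79 and 11.4 to 1.35, 3.78 and 3.63. Both had higher values in each restimulated than in each resting iTreg library, but those changes were not called (0.62 ± 0.39 and 0.71 ± 0.30). The Fzd7 fall rests on few reads, 25 over resting and 7 over activated tTregs. Fzd7 lost its class with edgeR, DESeq2, a pseudocount of 5 and a variance weight per group. Of 32 naive and quiescence genes, 18 fell in tTregs (56.2%, against 9.09% of all genes) and 1 rose, and 9 fell in iTregs (28.1%, against 4.33%). Over the alternatives the 18 ran from 15 to 23. Gimap7, a GTPase of resting lymphocytes, fell in tTregs from 2606, 2238 and 2196 to 1007, 1384 and 826, and its iTreg value was 0.25 ± 0.16.

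The 86 genes called in opposite directions, 0.75% of those tested, held 2 of 30 TCR-induced transcription factors and 2 of 22 TCR-induced surface proteins. In the same lists, 2 and 3 genes were called the same way in both cell types. Fosl2, an AP-1 subunit, went from 207, 178 and 175 to 511, 440.4 and 519 in iTregs and from 391, 536 and 484 to 202, 169 and 173 in tTregs. Neither pair of groups overlapped, and the log2 fold changes were 1.39 ± 0.14 (adjusted p = 6.42e-05) and -1.36 ± 0.14 (adjusted p = 2.85e-05). Crem, a cyclic AMP response factor that represses Il2, went from 821, 833 and 980.3 to 2531, 2357 and 2470.3 in iTregs and from 3916, 3052 and 3106 to 1487, 2309 and 1201 in tTregs. All 3 restimulated iTreg libraries were above the activated tTreg libraries, and all 3 resting iTreg libraries below the resting tTreg libraries. Of 30 TCR-induced transcription factors in all, 10 rose (33.3%) and 2 fell (6.67%) in iTregs and 8 rose (26.7%) and 2 fell (6.67%) in tTregs. The difference was called higher in iTregs for 5 (16.7%, against 6.51% of all genes) and lower for 4 (13.3%, against 9.70%). The share called lower is close to that of all genes.

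Il12rb2, the chain that makes the IL-12 receptor signal, rose in iTregs from 683, 823 and 911 to 4260.4, 4793 and 5176 (2.56 ± 0.34, adjusted p = 0.000518). In tTregs it was at 44.4, 59.7 and 29.6 at rest and 13.5, 36.9 and 12.7 on activation (-1.16 ± 0.34, adjusted p = 0.0221). The iTreg groups were far apart, while the tTreg groups overlapped, and the tTreg fall was not called without resting tTreg library 2 or activated library 1 or 3 (adjusted p = 0.0872, 0.0833 and 0.0881). Rgs1, which dampens chemokine receptor signals, rose by 1.15 ± 0.11 in iTregs and fell by 0.56 ± 0.11 in tTregs, where it was at 3909.7, 3707 and 3187 and then at 2309, 2405 and 2572. Tnfaip3, the NF-κB inhibitor A20, rose by 0.61 ± 0.15 and fell by 0.65 ± 0.15. Its rise in iTregs was lost without resting iTreg library 1 or restimulated library 1 or 2. Ramp3, a partner of the adrenomedullin receptor, rose from 8.43, 7.06 and 4.55 to 43.3, 57.2 and 56.3 in iTregs and fell from 114, 104 and 113 to 71.4, 62.4 and 52.7 in tTregs, although the fall was not called without resting tTreg library 1 or activated library 3 (adjusted p = 0.0502 and 0.0597).

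Cd274, which encodes the checkpoint ligand PD-L1, was also opposite. It was at 213, 204 and 219 in resting iTregs and at 501, 542 and 604 after restimulation, and at 457, 346 and 336 in resting and 203, 314 and 182 in activated tTregs. Neither pair overlapped, and the changes were 1.37 ± 0.19 and -0.73 ± 0.19. Cd274 is known to respond to interferon, and its promoter is shown for the interferon-stimulated response element (ISRE), marked by capitals.

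Cd274: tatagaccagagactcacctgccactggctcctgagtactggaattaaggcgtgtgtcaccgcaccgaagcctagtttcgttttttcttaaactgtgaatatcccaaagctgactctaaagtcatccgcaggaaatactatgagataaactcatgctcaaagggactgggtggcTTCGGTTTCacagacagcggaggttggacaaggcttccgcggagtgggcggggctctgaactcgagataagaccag

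Ifit1bl1: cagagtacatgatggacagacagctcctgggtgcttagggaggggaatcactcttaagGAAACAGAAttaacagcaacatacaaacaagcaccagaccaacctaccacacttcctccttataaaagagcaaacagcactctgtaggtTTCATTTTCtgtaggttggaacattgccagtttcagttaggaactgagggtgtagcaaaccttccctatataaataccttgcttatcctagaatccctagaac

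The Cd274 sequence is chr19:29367188-29367437 on the plus strand, and that of Ifit1bl1, an interferon-induced gene described with the shared genes, is chr19:34601969-34602218 on the minus strand, each the 250 bases before the RefSeq start in GRCm38.p6. The letters searched for were GAAANNGAA on both strands, with 1 match in Cd274 and 2 in Ifit1bl1, and 7.25% of the 9108 promoters held them. Although both hold these letters, Cd274 rose and Ifit1bl1 fell in iTregs.

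The genes that fell in iTregs and rose in tTregs included Muc13, Ltf and Cyp11a1. Muc13, an epithelial mucin, went from 103, 118 and 155 to 4.03, 5.60 and 3.63 in iTregs and from 3.63, 3.89 and 3.42 to 6.73, 15.1 and 23.6 in tTregs (-4.54 ± 0.38 and 1.65 ± 0.38). Ltf, the iron-binding protein lactoferrin, went from 103, 79.2 and 82.0 to 291, 409 and 351 in tTregs. It was low in resting iTregs, at 8.43, 9.08 and 19.0, and at 0 in all 3 restimulated libraries, which the 42 reads at rest put at least 4.01-fold lower. Cyp11a1, which makes pregnenolone from cholesterol, went from 3103, 3193 and 3467 to 1806, 1622 and 1553 in iTregs and from 12.7, 15.6 and 7.97 to 112, 129.6 and 169 in tTregs (-0.97 ± 0.20 and 3.42 ± 0.20). For these genes no pair of groups overlapped, which the rule that picked them required. Even after activation, tTregs held less Cyp11a1 than any iTreg library.

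Other genes of this direction were metabolic enzymes, a ligand and a granzyme. Idi1, of the isoprenoid pathway, changed by -0.55 ± 0.12 and 1.27 ± 0.12, and its iTreg fall was not called without resting library 2 or 3 or restimulated library 1 (adjusted p = 0.0527, 0.0538 and 0.0517). Phgdh, which opens serine synthesis, fell from 7671, 7434 and 7715 to 4651, 4465 and 4468 in iTregs and rose from 2880.1, 2629 and 2666 to 4889.6, 4951 and 5573 in tTregs, so that the activated tTreg libraries came to lie above the restimulated iTreg libraries. Sema4a, a ligand that stabilises Tregs through neuropilin-1, changed by -0.98 ± 0.14 and 0.51 ± 0.14, and the latter call was lost without resting tTreg library 3 or activated library 2 or 3. Sema4a also left the opposite class with edgeR, DESeq2, quantile normalization, a pseudocount of 5 and a variance weight per group. Gzmc, a granzyme, went from 28.5, 40.4 and 28.1 to 18.1, 14.6 and 13.6 in iTregs and from 12.7, 10.4 and 11.4 to 49.8, 54.9 and 41.8 in tTregs, and its iTreg call was lost without resting library 2 or restimulated library 2 or 3.

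Shared responses, 208 in all, were fewer than those called in either cell type only. Tg, which encodes thyroglobulin, rose from 176, 175 and 192 to 1474, 1325 and 1288 in iTregs and from 32.7, 44.1 and 53.5 to 241, 375 and 307 in tTregs, log2 fold changes of 2.90 ± 0.18 and 2.80 ± 0.18. Irf4, a transcription factor whose amount follows the strength of the TCR signal, rose from 2861, 3220.3 and 3661 to 5893, 5634 and 5622 and from 266, 210.2 and 173 to 335, 472 and 354.2. For both genes the groups were apart in each cell type and the difference was not called (0.10 ± 0.26 for Tg and -0.02 ± 0.23 for Irf4). Atf3, a stress-induced factor, rose by 1.85 ± 0.32 in iTregs and 0.99 ± 0.32 in tTregs, but it held its class in 9 of the 12 fits that left out 1 library, and its tTreg rise was not called by edgeR or DESeq2 (adjusted p = 0.0689 and 0.0884). The metallothionein Mt2 and the chemokine Ccl20 rose in both as well, but Mt2 held its class in 6 and Ccl20 in 2 of the 12 fits that left out 1 library. Ccl20 had 3 reads over resting and 12 over activated tTregs, a ratio of 4.68 (95% exact interval 1.264 to 25.9).

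Genes that fell in both included Rflnb, a partner of filamin, from 33.7, 31.3 and 25.0 to 6.04, 14.6 and 9.99 in iTregs and from 199.6, 244 and 197 to 36.4, 39.7 and 41.8 in tTregs. Dtx4, a ubiquitin ligase linked to Notch, fell in tTregs from 94.3, 92.1 and 82.0 to 22.9, 17.0 and 14.5. In iTregs it had 18 reads at rest and 2 after restimulation, a ratio of 8.25 (95% exact interval 1.98 to 73.3). Neto2, a membrane protein of neurons, held its class in 2 of the 12 fits that left out 1 library. Nlrp6, an inflammasome sensor, was called lower in both, but its 6 reads in resting tTregs and 0 in activated tTregs allow no fold change.

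A few shared genes also differed in size. Slc4a11, a membrane transporter of the bicarbonate family, rose by 1.39 ± 0.31 in iTregs, from 184, 204 and 220.0 to 498, 591 and 508, and by 2.85 ± 0.31 in tTregs, from 3.63, 5.19 and 1.14 to 30.97, 30.3 and 21.8. The difference of -1.46 ± 0.44 (adjusted p = 0.0392) was called in 4 of the 12 fits that left out 1 library. Tnfrsf8, the costimulatory receptor CD30, rose by 2.31 ± 0.15 in tTregs, from 250.4, 166 and 173 to 825, 1120.2 and 970.0, and by 0.54 ± 0.15 in iTregs, from 1373, 1565 and 1579 to 2241, 2172 and 2138. No groups overlapped, although its iTreg rise lay near the threshold and its class held in 6 of 12. Ms4a4b, a surface protein of naive T cells, fell by 2.45 ± 0.16 in iTregs and 0.88 ± 0.16 in tTregs. Ifit1bl1 fell in tTregs from 447, 417 and 296 to 110.4, 123 and 147, and in iTregs it had 72 reads at rest and 3 after restimulation, a ratio of 22.0 (95% exact interval 7.23 to 109). The Ifit1bl1 difference in size was called in 3 of the 12 fits that left out 1 library. Among TCR-induced surface proteins in all, 7 of 22 rose (31.8%) and 3 fell (13.6%) in iTregs, and 6 rose (27.3%) and 3 fell in tTregs. Lag3, an inhibitory receptor, rose in tTregs (2.86 ± 0.42) and had an iTreg value of 1.10 ± 0.42 (adjusted p = 0.121), and the difference was not called (adjusted p = 0.0627).

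Conventional T cells (Tconvs) gave a reference that the classes did not use. In a separate fit of 3 resting and 3 activated Tconv libraries, 2894 of the 11468 genes (25.2%) were higher and 2958 (25.8%) lower after activation. Of the 676 genes that rose in tTregs only, 76.8% rose in Tconvs and 2.66% fell. Of the 186 that rose in iTregs only, 35.5% rose in Tconvs and 22.0% fell. The tTreg-only share was thus far above the background of 25.2%, and the iTreg-only share closer to it. Of the genes that fell, 58.0% of the tTreg-only and 43.2% of the iTreg-only genes fell in Tconvs. Of the 99 genes that rose and the 109 that fell in both, 72.7% and 70.6% went the same way in Tconvs.

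Opposite genes split. Of the 42 that rose in iTregs and fell in tTregs, 57.1% fell and 26.2% rose in Tconvs, and of the 44 with the reverse pattern 56.8% rose and 18.2% fell. Fosl2 and Crem fell in Tconvs (-1.12 and -0.62), as in tTregs. Il12rb2, Cd274 and Rgs1 rose in Tconvs (5.61, 2.39 and 4.54), as in iTregs. Across all genes the Tconv response had a Pearson r of 0.51 with that of tTregs and 0.19 with that of iTregs, over genes and not over replicates. Foxp3 was at a mean of 10.4 in resting and 33.8 in activated Tconvs, far under all Treg libraries.

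**Figure D5:**
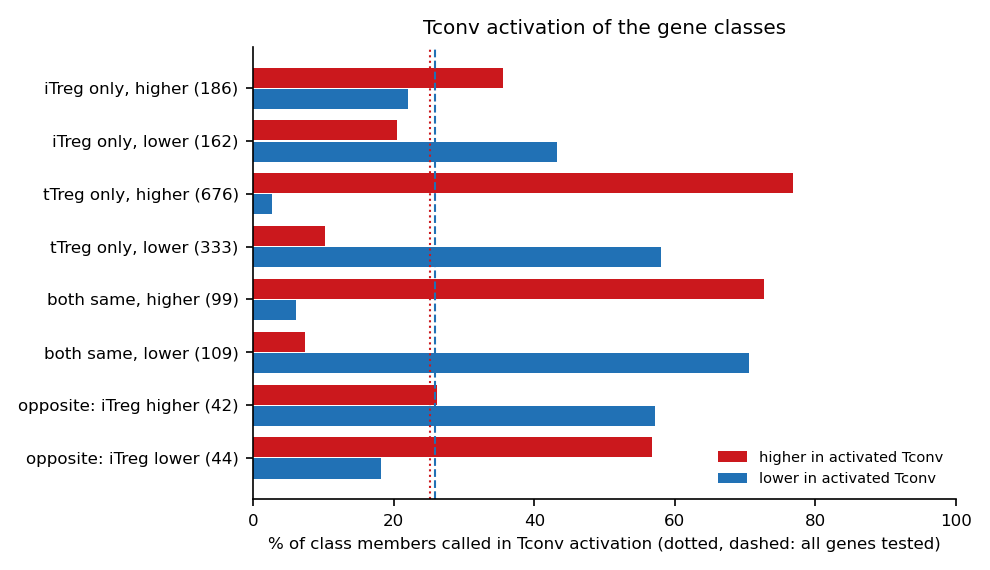
Percent of the genes of each class (number of genes in brackets) called higher (red) and lower (blue) on activation of Tconvs, with a dotted line at 25.2% and a dashed line at 25.8% for all genes tested. The classes that rose or fell in tTregs only or in both went the same way in Tconvs for 58.0% to 76.8% of their genes, against 35.5% and 43.2% for the iTreg-only classes.

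Part of the reads of some named genes could belong to neighbours, since the library protocol did not mark strand. Of the exon bases of Mt2, 73.5% are shared with another annotated gene, and the share is 46.3% in Gbp10, 40.0% in Il12rb2, 35.4% in Prok1, 30.7% in Mpzl2, 26.7% in Fdps, 22.8% in Ube2c and 21.5% in Ccr9.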

How the data were processed

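RNA-seq libraries were made from sorted cells by a modified SMART-seq2 protocol, which counts no molecular identifiers and marks no strand. The authors trimmed reads with cutadapt 1.18, aligned them to mm10 with STAR 2.5.3 and counted genes with RSEM 1.3.0. The deposited values (unit: signal) are gene read counts divided by 1 size factor per library, per the values themselves: each was a whole multiple of the library's step within 0.001, so that whole reads were recovered for all of them. The table held 21950 genes and 24 libraries, of which 12 were used, and 6 Tconv libraries in a fit of their own. The 11468 genes that reached 10 normalized counts in 3 or more of those 12 entered the test on log2(value + 1) with limma 3.58.1 (trend, 4 group means, no covariate) in R 4.3.3, with Benjamini-Hochberg adjustment and the thresholds of the study's methods (adjusted p of 0.05, log2 fold change of 0.5). edgeR 4.0.16 and DESeq2 1.42.0 on the recovered reads, other scalings, pseudocounts, filters, thresholds, group variance weights, thinning, a replicate block and leaving out each library were alternatives. On simulated counts for these 11468 genes, the interaction test called 70 of 100 genes at a log2 difference of 1, 100 of 100 at 2 and 7 of 11268 unchanged genes. The simulation used a single dispersion of 0.02 and the same mean in all 4 groups. Changes were placed only in restimulated iTregs and only in genes that were not low. These rates need not hold for low genes or for the wider spread of tTreg libraries.

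Genes were named by rule: per class and direction the 4 with the largest difference (or, for shared genes, the largest smaller change) among genes with a group mean of at least 50, no overlap between called groups and a named symbol, up to 4 members per list, and genes in the study's text. Not all of these are reported here. Members, lists and rules were chosen with earlier results of these data known. A floor of 3 reads per library stood for a count of 0. Exact binomial 95% intervals were used for ratios of few reads. Deviations of same-numbered libraries had correlations from 0.0068 to 0.205 in iTregs (mean 0.12, against -0.06 for other pairs). In tTregs they ran from -0.42 to -0.12 (mean -0.27, against 0.13 for other pairs). Whether the numbers pair samples is not stated, and the main fit used no pairing. Chromatin files of the series were not used here. Gene positions come from a GENCODE annotation of GRCm38, and promoters from RefSeq.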

Additional observations from a re-analysis of the deposited data

Results flagged for a closer look

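The change on stimulation differed between iTregs and tTregs for 68 genes named above, by the test of the difference itself (limma, adjusted p below 0.05 and an absolute difference above 0.5). Values are the iTreg minus the tTreg log2 fold change, on the log2(normalized count + 1) scale, from 3 libraries per group. With 3 libraries per group, no library was tested as an outlier.

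Among the 20 iTreg-only genes, the difference was 4.00 for Gbp10, 2.96 for Fasl, 2.74 for Bcl2l14, 2.17 for Il10, 1.51 for Tigit, 1.33 for Rgs16, 1.05 for Bhlhe40 and 0.87 for Stat2. It was -4.14 for Prok1, -3.11 for Pdlim4, -3.07 for Ifi203, -3.06 for Coro6, -2.30 for Id3, -1.50 for Il18rap, -1.47 for Klf2, -1.28 for Cxcr3, -1.03 for Tgfbr1, -0.80 for Foxp3, -0.78 for Orai2 and -0.61 for Il10rb. Il9, Il21 and Gzma are left out, since no tTreg library contained them and there was no tTreg change to compare. Pdlim4 and Coro6 had 3 and 2 reads over the resting tTreg libraries, so that their values rest on few reads.

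Among the 30 tTreg-only genes, those of the cell cycle had -4.74 for Hmmr, -4.68 for Spc24, -4.49 for Bub1, -4.32 for Pclaf, -4.24 for Cdc6, -4.11 for Mcm10, -4.02 for E2f8, -4.02 for Ube2c and -2.79 for Uhrf1. The value for Hmmr, at 0 in resting tTregs, depends on the pseudocount and ran from -7.996 to -2.67 over the alternatives. Metabolic and folding genes had -3.03 for Slc7a3, -2.82 for Cth, -1.89 for Sqle, -1.63 for Fdps, -1.60 for Pycr1, -1.48 for Hsph1, -1.42 for Slc16a3, -1.32 for Hspa5, -1.28 for Tpi1 and -1.26 for Calr. Further values were -1.27 for Ccr8, -1.26 for Socs2 and -1.16 for Nkg7, and, for genes that fell in tTregs, 3.93 for Mpzl2, 3.11 for Ccr9, 2.46 for Galnt9, 2.13 for Fzd7, 1.41 for Gimap7, 1.02 for Slc2a3, 1.01 for Itpr1 and 0.74 for Itpkb. Bub1, Cth and E2f8 had 3, 3 and 5 reads over resting tTregs and Fzd7 had 7 over activated tTregs, so their values rest on few reads. Ccr9 had 4 and 7 reads over resting and restimulated iTregs, too few to measure an iTreg change.

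Among the 14 opposite genes, it was -6.19 for Muc13, -5.61 for Ltf, -4.39 for Cyp11a1, -3.00 for Gzmc, -1.83 for Idi1, -1.66 for Phgdh and -1.48 for Sema4a, and 3.72 for Il12rb2, 3.64 for Ramp3, 2.75 for Fosl2, 2.54 for Crem, 2.10 for Cd274, 1.72 for Rgs1 and 1.27 for Tnfaip3. Ltf was at 0 in restimulated iTregs, and its value likewise ran from -8.83 to -3.66. The 4 shared genes that differed in size had -2.20 for Ifit1bl1, -1.78 for Tnfrsf8, -1.56 for Ms4a4b and -1.46 for Slc4a11, of which the Ifit1bl1 and Slc4a11 differences were called in 3 and 4 of the 12 fits that left out 1 library.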

How the results depend on the processing

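With a log2 fold change above 1 in place of 0.5, the calls were 350 in iTregs, 739 in tTregs and 826 for the difference, with 153 iTreg-only, 362 tTreg-only, 55 shared and 17 opposite genes. With the adjusted p alone, shared genes numbered 372 and opposite genes 168. All other counts stayed within 1.5 times the reported ones under the other alternatives. Leaving out each of the 12 libraries in turn gave 653 to 1019 genes in iTregs, 1894 to 2829 in tTregs, 1368 to 2364 for the difference, 252 to 361 iTreg-only, 775 to 1415 tTreg-only, 147 to 237 shared and 61 to 107 opposite genes. With the replicate number as a block, although it is not stated to pair samples, they were 833, 2271, 1594, 302, 897, 184 and 73 in the same order. With edgeR on the reads the counts were 1091, 2360, 1866, 341, 1003, 230 and 97. No scaling moved the share of higher calls by over 10 percentage points.

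Of the named genes, 7 changed the sign of a difference that was not called in the first place; the cause was not tested. With a pseudocount of 0.1 it was -0.58 for Ccl20, -1.11 for Dtx4 and 2.40 for Nlrp6, and with a pseudocount of 5 it was -0.26 for Neto2. With edgeR it was -0.13 for Ccl20, -0.53 for Dtx4, -0.25 for Neto2, 2.04 for Nlrp6 and -0.34 for Tnfsf4, and with DESeq2 -0.25, -0.73, -0.20, 1.07 and -0.31. With 1 library left out it ran from -0.059 to 0.29 for Tg, from -0.014 to 0.61 for Dtx4, from -0.27 to 0.49 for Neto2, from -0.18 to 0.13 for Irf4 and from -0.76 to 0.95 for Tnfsf4.

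Depth limits what can be said of genes low in tTregs, whose libraries were the shallower ones. With reads thinned to the shallowest library, 817 genes were called in iTregs, 2128 in tTregs and 1560 for the difference. With a variance weight per group the calls were 1401, 1802 and 1841, so that the ratio of tTreg to iTreg calls depends on the assumed spread. Il12rb2 was iTreg-only and not opposite by edgeR. Il21, Gzma, Il9, Klf2, Ifi203, Sema4a and Fzd7 were among the named genes that lost their class by both edgeR and DESeq2.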

Other observations

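Chemokine and survival genes were called in both directions. Of all genes tested, 3.87% rose and 4.33% fell in iTregs and 11.7% rose and 9.09% fell in tTregs. Of 21 chemokines, chemokine receptors and homing genes tested, 3 rose (14.3%) and 4 fell (19%) in iTregs and 4 rose and 4 fell (19% each) in tTregs. The difference was called higher in iTregs for 4 (19%, against 6.51% of all genes) and lower for 5 (23.8%, against 9.70%). Of 19 BCL2 family and death receptor genes, 2 rose (10.5%) and 1 fell (5.26%) in iTregs and 4 rose (21.1%) and 2 fell (10.5%) in tTregs. The list of 28 genes named in the study's text had 10 higher (35.7%) and 9 lower (32.1%) in iTregs and 4 higher and 4 lower (14.3% each) in tTregs. Those genes were picked by the study on these samples, so their directions are not independent evidence.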
